A study of Mus musculus with 3 samples.

Results

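Ttr, Folr1, Kl, Clic6, Enpp2, Otx2, Aqp1, Slc4a5, Prlr and Calml4 are 10 genes known for high activity in the epithelium of the choroid plexus, and their transcripts were followed across 3 RNA-Seq libraries of mouse brain vessels. They were chosen by name, as a list of choroid plexus epithelium genes, but with earlier results of these data known. Shares of all genes set beside these 10 genes are thus description only. The list makes up 10 of the 29917 genes that could be named in the count files. The study asked how the loss of connexin 30 (Cx30, encoded by Gjb6), a gap junction protein of astrocytes, changes transcription in brain vessels. All animals were males aged 3 months, per the labels and the methods, and each library held vessels isolated from whole brains and pooled from 3 mice. A first wild-type library, C57BL6 WT, came from the C57BL6 background, and a second, C57BL6-BALB/c WT, from a mixed C57BL6 and BALB/c background. The Cx30-/- library came from mice in which Cx30 is deleted in every cell. Its background is C57BL6 in the labels and C57BL6 with Balbc in the methods. With 1 library per group there was no spread between replicates, and no test between conditions was possible. In any difference of Cx30-/- from a WT library, genotype, background, the mice pooled and the vessel preparation cannot be told apart. Between the WT libraries, which share the Cx30 genotype, background, the mice pooled and the vessel preparation cannot be told apart.

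The choroid plexus is a fold of vascular tissue inside the brain ventricles. A single layer of epithelial cells, joined by tight junctions, covers fenestrated capillaries and secretes the cerebrospinal fluid. These cells move ions and water, carry folate and other nutrients from blood to fluid, and release transthyretin, the carrier of thyroid hormone in the fluid. Most of the 10 genes are also active in some other organ or brain cell, for instance Enpp2 in oligodendrocytes, Aqp1 in red blood cells and kidney, and Kl in kidney.

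Counts were taken per gene from 1 transcript row and divided by a size factor for each library, which gives normalized counts. Raw counts over the rows used came to 24164505 for C57BL6 WT, 20383010 for C57BL6-BALB/c WT and 20143253 for Cx30-/-. The deleted gene, Gjb6, stood at 2531 normalized counts in C57BL6 WT, 2426 in C57BL6-BALB/c WT and 101 in Cx30-/-, so that the genotype labels and the counts point the same way. For the labelled tissue, the normalized counts of 10 endothelial genes summed to 151023, 94923 and 185100 in the same order. Those of the 10 choroid genes summed to 187040, 77120 and 105507, and such sums alone do not identify the tissue. The study names endothelial cells, smooth muscle cells and pericytes as the contents of the preparation and does not name the choroid plexus.

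Every one of the 10 choroid genes was detected in all 3 libraries, from 306 raw counts (Calml4 in C57BL6-BALB/c WT) to 157623 (Ttr in C57BL6 WT). Together they took 0.886% of all gene counts in C57BL6 WT (95% exact binomial interval 0.883 to 0.890), 0.350% in C57BL6-BALB/c WT (0.348 to 0.353) and 0.499% in Cx30-/- (0.496 to 0.502). The share was thus highest in C57BL6 WT, lowest in the other WT library and between them in Cx30-/-. Intervals here and below cover counting error only. Ttr alone supplied 73.6%, 68.6% and 67.6% of these counts, and Enpp2 20.3%, 24.4% and 25.0%. With Ttr set aside, the normalized counts of the other 9 genes summed to 49402, 24190 and 34141, which kept the order of the libraries. In bulk RNA, a smaller number of epithelial cells in a pool and less RNA per epithelial cell cannot be told apart.

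The genes that lead the list encode secreted proteins. Ttr (transthyretin, ENSMUSG00000061808, GRCm38 18:20665280-20674321, plus strand) stood at 137638 normalized counts in C57BL6 WT, 52930 in C57BL6-BALB/c WT and 71366 in Cx30-/-. Per kilobase of transcript it ranked 1st, 2nd and 3rd of 14883 genes in these libraries. Enpp2 (autotaxin, the enzyme that makes lysophosphatidic acid, 15:54838901-54952892, minus strand) stood at 37985, 18795 and 26397 normalized counts, ranks 27, 52 and 47. Both were highest in C57BL6 WT and lowest in C57BL6-BALB/c WT. The level of Ttr per kilobase was 18.3 times that of Enpp2 in C57BL6 WT, 14.2 times in C57BL6-BALB/c WT and 13.7 times in Cx30-/-. These levels use the transcript lengths in the files, 614 bases for the Ttr row, where GENCODE M21 gives 1186 bases for the same transcript, and a longer length would lower the level of Ttr in every library alike. Oligodendrocyte genes, which mark another source of Enpp2, had a median log2 ratio of -0.38 between the WT libraries, against -1.02 for Enpp2. In Cx30-/- all 7 of them were lower than in C57BL6 WT, with a median of -0.45 against -0.53 for Enpp2, and against C57BL6-BALB/c WT their median was -0.32 where that of Enpp2 was 0.49. Their part in the Enpp2 values was not tested.

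Surface receptors of the list ranged lower. Kl (klotho, the co-receptor of fibroblast growth factor 23, 5:150952607-150993817, plus strand) reached 4048 in C57BL6 WT, 1727 in C57BL6-BALB/c WT and 2411 in Cx30-/-, as normalized counts. Folr1 (folate receptor alpha, which carries folate across the epithelium, 7:101858331-101870788, minus strand) had 1005, 385 and 714. Prlr (the prolactin receptor, 15:10177238-10349180, plus strand) had 1313, 703 and 988. Each of these receptors followed the order seen for Ttr. Per kilobase, Kl and Folr1 were not separable in C57BL6 WT, at 807 and 765, and Folr1 was above Kl only in Cx30-/-, at 544 against 480. Prlr, whose transcript is the longest of the list, was the lowest of the 10 genes per kilobase in every library, at 133, 71.0 and 99.8.

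Among the genes for channels and transport, Clic6 (a chloride intracellular channel protein, 16:92485736-92541243, plus strand) stood at 1980 normalized counts in C57BL6 WT, 1074 in C57BL6-BALB/c WT and 1354 in Cx30-/-. Aqp1 (the water channel of the apical membrane, 6:55336432-55348555, plus strand) had 1071, 393 and 591. Slc4a5 (a sodium bicarbonate cotransporter, 6:83219828-83304945, plus strand) had 944, 375 and 594. The order of the libraries was again the same for each.

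Otx2 and Calml4 complete the list. Otx2 (a homeobox transcription factor needed for choroid plexus development, 14:48657677-48673819, minus strand) had 624, 408 and 538 normalized counts. Calml4 (a calmodulin-like protein, 9:62858080-62875921, plus strand) had 432, 331 and 554. Otx2 kept the common order with smaller steps. Calml4 was the exception of the list, since its highest value was in the Cx30-/- library. Its share of the summed level per kilobase of the 10 genes was 0.209% in C57BL6 WT, 0.408% in C57BL6-BALB/c WT and 0.505% in Cx30-/-. The order C57BL6 WT above Cx30-/- above C57BL6-BALB/c WT was found in 9 of the 10 genes and in 13.9% of the 14979 genes that could be ordered. The 3 comparisons share libraries, so that they are not independent readings of this order.

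**Figure D1:**
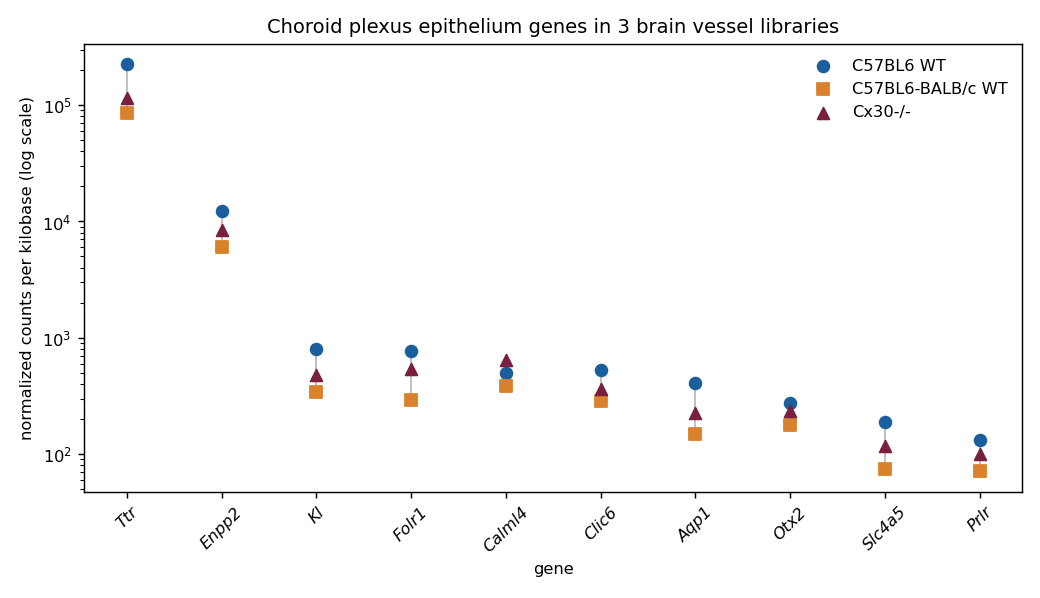
Normalized counts per kilobase of transcript (log axis) of the 10 choroid plexus genes in the C57BL6 WT, C57BL6-BALB/c WT and Cx30-/- libraries, 1 point per library. The C57BL6 WT point is the highest for 9 genes, the C57BL6-BALB/c WT point is the lowest for all 10, and for Calml4 the Cx30-/- point is the highest.

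Ordered by level per kilobase, Ttr and Enpp2 led in each library and Slc4a5 and Prlr came last. Kl (807), Folr1 (765), Clic6 (527), Calml4 (502), Aqp1 (408) and Otx2 (273) followed Enpp2 in C57BL6 WT, where Kl and Folr1, and Clic6 and Calml4, had overlapping Poisson intervals. In C57BL6-BALB/c WT, Calml4 (384) and Kl (344) overlapped at the head of this middle group, then Folr1 (293) and Clic6 (286), then Otx2 (179) and Aqp1 (150), and Slc4a5 (74.4) overlapped Prlr (71.0). In Cx30-/- the order was Calml4 (643), Folr1 (544), Kl (480), Clic6 (361), Otx2 (236) and Aqp1 (225), and only the last pair overlapped. Calml4 was thus separable as the third gene of the list only in Cx30-/-, and Aqp1 stood above Otx2 in C57BL6 WT and was not separable from it in the other libraries.

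The sequence just before the start of transcription is shown for Aqp1 and Calml4, which had the largest and the smallest difference between the WT libraries, and for Otx2, whose protein is a regulator of choroid plexus genes. Each run is the 250 bases upstream of a RefSeq transcript start in GRCm38.p6, written 5′ to 3′ on the strand of the gene. Capitals mark a match to TAATCC or its reverse complement GGATTA, the core motif of OTX proteins. They lie at chr6:55336049-55336298 (plus strand) for Aqp1, chr9:62857854-62858103 (plus strand) for Calml4 and chr14:48665110-48665359 (minus strand) for Otx2.
Aqp1: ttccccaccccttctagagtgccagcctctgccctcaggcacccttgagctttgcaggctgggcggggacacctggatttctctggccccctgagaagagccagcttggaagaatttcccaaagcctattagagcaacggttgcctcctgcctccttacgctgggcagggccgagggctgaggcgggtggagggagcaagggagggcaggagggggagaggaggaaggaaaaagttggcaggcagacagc
Calml4: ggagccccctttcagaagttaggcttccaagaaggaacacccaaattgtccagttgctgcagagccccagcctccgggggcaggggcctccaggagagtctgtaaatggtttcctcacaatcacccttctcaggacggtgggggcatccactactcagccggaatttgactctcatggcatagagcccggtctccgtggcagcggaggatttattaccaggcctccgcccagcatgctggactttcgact
Otx2: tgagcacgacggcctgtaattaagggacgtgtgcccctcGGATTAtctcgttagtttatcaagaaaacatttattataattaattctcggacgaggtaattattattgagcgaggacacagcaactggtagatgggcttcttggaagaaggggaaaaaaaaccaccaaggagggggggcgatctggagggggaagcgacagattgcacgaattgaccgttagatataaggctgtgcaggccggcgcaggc
The RefSeq table held promoter windows for 6 of the 10 genes, namely Kl, Aqp1, Slc4a5, Calml4, Otx2 and Prlr, with 11 windows of 300 bases that ran from 250 bases before the start to 50 after it. The motif, searched on both strands, occurred in 1 of these 11 windows, that of Otx2 shown here, and the other 3 of the 4 Otx2 windows had no match. Of all 32851 windows in the table, 7.06% held it. A match is a description of the letters and not a site of binding.

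For 9 of the 10 genes the log2 ratio between the WT libraries was larger in size than either ratio involving Cx30-/-, and Calml4 was the exception. This restates the order above, since Cx30-/- lay between the WT libraries for those 9 genes. All 10 genes were lower in C57BL6-BALB/c WT than in C57BL6 WT, with log2 ratios from -1.45 (Aqp1) to -0.39 (Calml4) and a median of -1.12, a level 2.18 times lower. In 6 genes the difference was at least 2-fold, which is the threshold of a call here, together with at least 50 normalized counts in 1 of the libraries compared. They were Ttr, Folr1, Kl, Enpp2, Aqp1 and Slc4a5, and under upper-quartile scaling 5 remained, without Enpp2. Across all 14791 genes tested, 2.02% were at least 2-fold lower, 1.41% at least 2-fold higher, and the median log2 ratio was 0.0004. These are 299 and 209 genes, which became 378 and 167 after scaling by the total behind the fraction column. None of the 10 genes passed 4-fold, against 0.183% of all genes in that direction.

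By gene, the log2 ratio of C57BL6-BALB/c WT to C57BL6 WT was -1.38 for Ttr (95% exact conditional binomial interval -1.39 to -1.36), and counting error was small against it. Aqp1 (-1.45, interval -1.62 to -1.28), Folr1 (-1.39, -1.56 to -1.21) and Slc4a5 (-1.33, -1.51 to -1.16) overlapped with Ttr within counting error. Kl followed at -1.23 (-1.31 to -1.15). Enpp2 lay just past the 2-fold threshold at -1.02 (-1.04 to -0.99), and its interval reached to the other side of it. Prlr (-0.90, -1.04 to -0.77) lay just inside the threshold with an interval that crossed it, and Clic6 (-0.88, -0.99 to -0.77) just inside with its whole interval. Otx2 (-0.61, -0.80 to -0.43) and Calml4 (-0.39, -0.60 to -0.18) differed least. The intervals of Ttr, Enpp2 and Calml4 did not overlap, so that the genes differed by unequal factors beyond counting error. Ranked from the lowest ratio of the 14791 genes, Aqp1 was at place 88, Folr1 at 105, Ttr at 107, Slc4a5 at 125 and Kl at 156, while Otx2 was at 1073 and Calml4 at 2458.

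**Figure D2:**
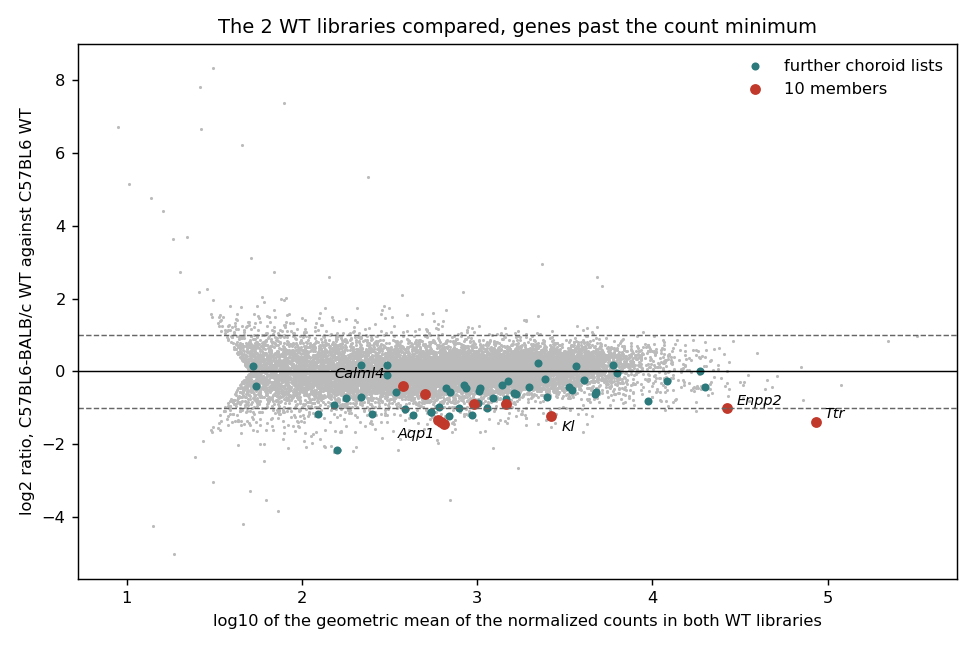
Log2 ratio of C57BL6-BALB/c WT to C57BL6 WT against the log10 of the geometric mean of the normalized counts in these libraries, for genes past the count minimum; grey points are all genes, teal points the further choroid lists, red points the 10 choroid genes, and dashed lines mark 2-fold. The red points lie between -1.45 and -0.39, all below 0, and 7 genes at 0 counts in 1 WT library are not drawn.

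Against C57BL6 WT, the Cx30-/- library held less RNA of 9 of the 10 genes and more of Calml4, and no gene reached 2-fold. The median log2 ratio was -0.54, a level 1.45 times lower. Of all 14776 genes tested, 1.42% passed 2-fold upwards and 1.26% downwards, with a median of -0.005. Between 5% and 95% of all genes the ratios ran from -0.63 to 0.58, and Ttr, Aqp1, Kl and Slc4a5 lay below this range. Ttr had the lowest ratio, -0.95 (-0.96 to -0.93), followed by Aqp1 at -0.86 (-1.0 to -0.71), Kl at -0.75 (-0.82 to -0.68) and Slc4a5 at -0.67 (-0.82 to -0.52). These 4 genes were also those at least 1.5-fold lower, where 5.85% of all genes were. Clic6 (-0.55), Enpp2 (-0.53), Folr1 (-0.49) and Prlr (-0.41) were close to the median of the list. The interval of Slc4a5 held this median and that of Prlr (-0.53 to -0.29) did not. Otx2 was lower by little, at -0.21 (-0.38 to -0.05). Calml4 was higher at 0.36 (0.18 to 0.54), and the SD of the 10 ratios was 0.37 with it and 0.23 without it.

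Against C57BL6-BALB/c WT, all 10 genes were higher in Cx30-/-, again with none past 2-fold. The log2 ratios ran from 0.34 (Clic6) to 0.89 (Folr1), with a median of 0.49, a level 1.40 times higher. Of all 14891 genes tested, 3.96% passed 2-fold upwards and 4.73% downwards, and the median was 0.004. These are 589 and 705 genes, which turned to 776 and 547 after scaling by the total behind the fraction column. The ratios of the 10 genes thus lay inside the range of -0.98 to 0.93 that held the middle of all genes, from 5% to 95%. Folr1 at 0.89 (0.71 to 1.08), Calml4 at 0.74 (0.54 to 0.95), Slc4a5 at 0.66 (0.47 to 0.86) and Aqp1 at 0.59 (0.39 to 0.78) were at least 1.5-fold higher, where 14.1% of all genes were. Enpp2 and Prlr at 0.49, Kl at 0.48, Ttr at 0.43 (0.41 to 0.45), Otx2 at 0.40 and Clic6 at 0.34 made up the rest. Here the intervals of 6 genes held the median of the list, against 4 in the comparison with C57BL6 WT and 0 between the WT libraries. Enpp2 and Prlr are among the 6 by construction, since the median lies between their ratios.

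The sign of the Cx30-/- difference therefore depended on which WT library it was set against for 9 of the 10 genes, and Calml4 alone was higher than in both. No gene of the list was past 2-fold against both WT libraries, where 0.742% of 14688 genes were higher and 0.681% lower. The comparisons of Cx30-/- with each WT library share the Cx30-/- library.

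**Figure D3:**
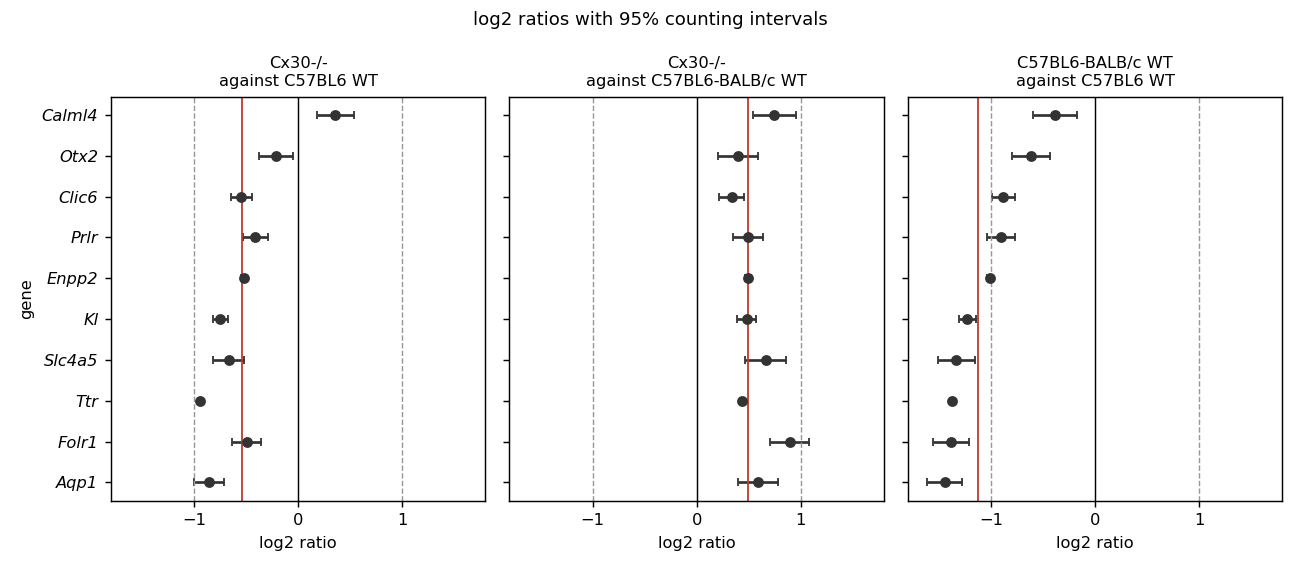
Log2 ratios of the 10 choroid genes in the 3 comparisons, with 95% exact conditional binomial intervals (counting error only); dashed lines mark 2-fold. Cx30-/- lies below C57BL6 WT for all genes but Calml4 and above C57BL6-BALB/c WT for all 10, and the ratios between the WT libraries are all negative.

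Reads reached most bases of each transcript row used, which does not show how evenly the counts lay along it. Reads covered 100% of the Ttr row in every library, and the lowest coverage was 85.3% for Slc4a5 in C57BL6-BALB/c WT. Ttr, Kl, Clic6, Enpp2, Aqp1 and Calml4 had 1 transcript row each. Folr1 had 16 rows, Prlr 12, Otx2 8 and Slc4a5 6, which share reads wherever they share exons. Over these rows the log2 ratio between the WT libraries stayed negative, from -1.51 to -0.67 for Folr1, -1.0 to -0.62 for Prlr, -0.63 to -0.52 for Otx2 and -1.99 to -1.22 for Slc4a5. For Otx2 in Cx30-/- against C57BL6 WT the rows ran from -0.21 to 0.13, so that the small difference of this gene changed sign between its rows. The kit did not keep the strand, and in GENCODE M21 the exons of the transcripts used overlapped no other gene, except for 2.05% of the bases of Prlr, shared with Gm21973.

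A further 52 genes of choroid plexus function, in 4 lists, were looked at beside the 10, and 51 of them were in the files. Between the WT libraries, 43 of the 50 past the count minimum were lower in C57BL6-BALB/c WT and 7 higher, with a median log2 ratio of -0.56. Of these genes, 11 were at least 2-fold lower and none at least 2-fold higher. Among the 11, the counting intervals of Kcnj13, Stra6 and Steap1 alone lay wholly past 2-fold, and the others reached its other side. Across all genes tested, 49.98% were lower there, 2.02% at least 2-fold lower and 1.41% at least 2-fold higher. Cx30-/- was lower than C57BL6 WT in 38 of 49 genes (median -0.16), where 50.71% of all genes were. It was higher than C57BL6-BALB/c WT in 37 of 50 (median 0.42), where 50.26% of all genes were. The common order of the 10 genes was found in 28 of the further genes, and in 13.9% of the 14979 genes that could be ordered.

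Of the 13 genes of ion and water transport, Kcnj13 (-1.22) and Kcne2 (-1.10), both potassium channel subunits of the epithelium, were at least 2-fold lower in C57BL6-BALB/c WT than in C57BL6 WT. Atp1b1, the gene of highest level in this list, is also expressed by neurons and glia. Its ratio was 0.01 between the WT libraries and -0.73 in Cx30-/- against C57BL6 WT. Among 12 nutrient and vitamin carriers, Steap1 (-2.15) and Stra6 (-1.19), the receptor of retinol-binding protein, were at least 2-fold lower between the WT libraries. Steap1, at 384, 70 and 137 raw counts, was also the only further choroid gene called against C57BL6 WT, with a ratio of -1.22 in Cx30-/-. The interval, -1.51 to -0.94, reached the other side of 2-fold, and 1.26% of all genes were at least 2-fold lower there. Slco1c1 and Slc22a8, which carry thyroid hormone and organic anions and are shared with brain endothelium, were the highest of the list. They stood at 0.12 and 0.46 in Cx30-/- against C57BL6 WT and at 0.94 and 1.04 against C57BL6-BALB/c WT. Slc22a8 was there the only further choroid gene past 2-fold. The carriers thus had the highest median of the 4 lists in that comparison, 0.65, and ion and water transport the lowest, 0.16.

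Of the 11 secreted and hormone response genes, Sostdc1 (-1.20), Wfdc2 (-1.17) and 1500015O10Rik (-1.02) were at least 2-fold lower in C57BL6-BALB/c WT. Igf2 and Igfbp2, a growth factor and a binding protein of its family that the meninges also make, led this list in level, with ratios of -0.42 and -0.61. In the list of identity, junction and keratin genes, the tight junction genes Cldn1 (-1.18) and Cldn2 (at the threshold), Tmem72 (-1.04) and Rdh5 (-1.10), a retinol dehydrogenase, were at least 2-fold lower. The counting intervals of all genes named in this paragraph as at least 2-fold lower reached the other side of 2-fold. Spint2, the highest of the identity, junction and keratin list, had -0.37. The 4 lists had medians of -0.43, -0.72, -0.63 and -0.55 between the WT libraries in the order given, each closer to 0 than that of the 10 genes.

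Genes of other cells also differed between the libraries, in some lists in the direction of the choroid genes and in others against it. The 10 endothelial genes were all lower in C57BL6-BALB/c WT than in C57BL6 WT, with a median of -0.70, and all higher in Cx30-/- than in either WT library, with medians of 0.24 and 0.87. Pericyte genes had a median of -0.68 between the WT libraries, and smooth muscle genes 0.53. The 5 genes of fenestrated endothelium, the vessel type inside the choroid plexus, had medians of -0.17 between the WT libraries, -0.03 in Cx30-/- against C57BL6 WT and 0.34 against C57BL6-BALB/c WT. They did not move as 1 group, since 3 were lower and 2 higher in Cx30-/- than in C57BL6 WT, with Nostrin at 0.57. Plvap stood at -0.44, -0.63 and -0.18 in the 3 comparisons. Meningeal and stromal fibroblast genes had -0.25, 0.26 and 0.49 in the same comparisons.

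The 12 genes of motile cilia mark ependymal cells that line the ventricles next to the choroid plexus. In Cx30-/- against C57BL6 WT they did not follow the 10 choroid genes. The normalized counts of the cilia genes summed to 10607 in C57BL6 WT, 11899 in C57BL6-BALB/c WT and 16888 in Cx30-/-. Ccdc39 went from 2952 in C57BL6 WT to 4462 in C57BL6-BALB/c WT, while 8 of the 12 genes were lower there. Against C57BL6-BALB/c WT, 11 of the 12 were higher in Cx30-/-, as all 10 choroid genes were. All 12 were higher in Cx30-/- than in C57BL6 WT, where 9 of the 10 choroid genes were lower, and none had the common order of the choroid genes. Their medians were -0.18 between the WT libraries, 0.60 in Cx30-/- against C57BL6 WT and 0.89 against C57BL6-BALB/c WT. Neuronal genes had medians of 0.31, -0.44 and -0.79, astrocyte genes -0.02, -0.25 and -0.11, and genes of macrophages and microglia -0.32, -0.12 and 0.10. Erythroid genes, which bear on Aqp1 as a gene of red blood cells, had -0.94, 1.28 and 2.05. These medians rest on 3, 5 and 5 of the 8 erythroid genes, those past the count minimum. Aqp1 had -1.45, -0.86 and 0.59 in the same comparisons. Pineal and retinal pigment epithelium genes, which bear on Otx2, summed to 321, 258 and 238 normalized counts, with Tyr at 1, 0 and 0 raw counts and Crx at 5, 8 and 5. What these cells contribute to the values of the 10 genes was not tested.

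**Figure D4:**
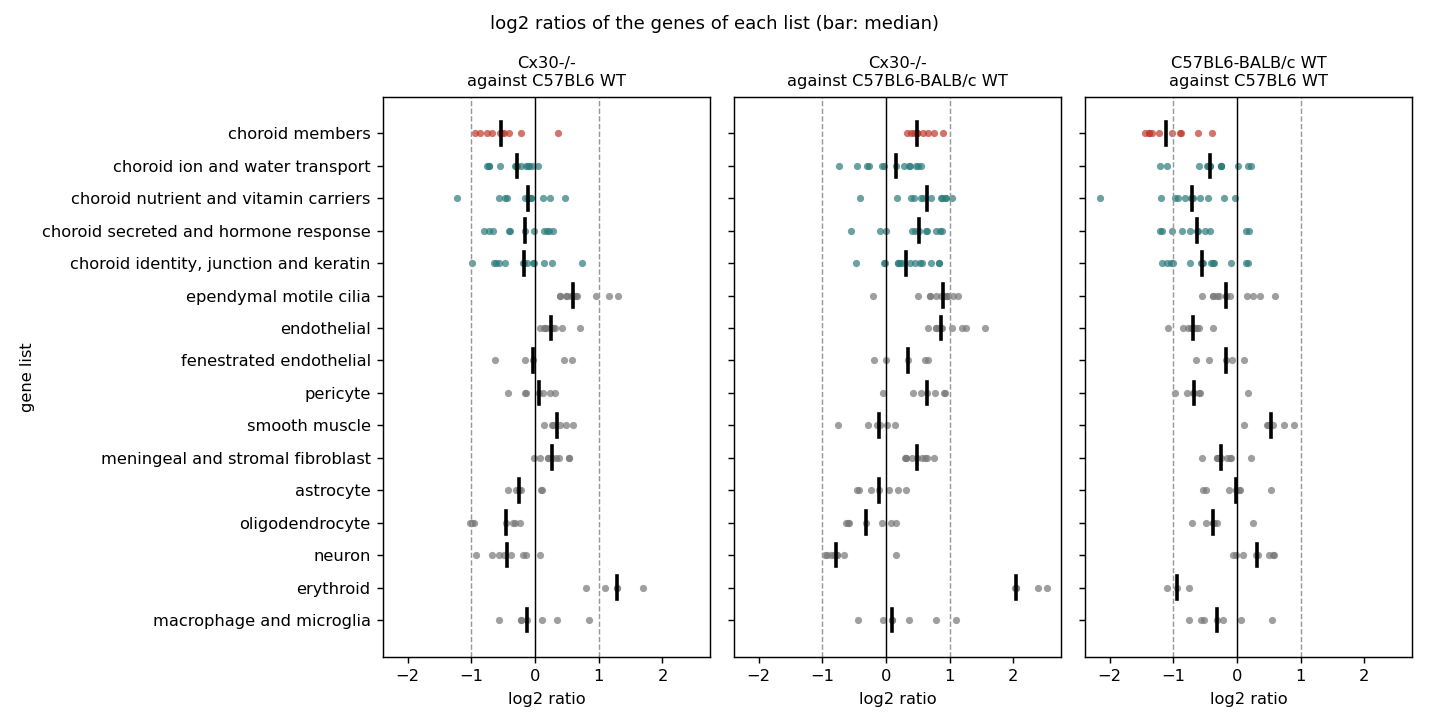
Log2 ratios of single genes (points) and list medians (bars) for the 10 choroid genes, the further choroid lists and lists of other cell types, in the 3 comparisons. The 10 choroid genes have the lowest median between the WT libraries, -1.12, and motile cilia genes lie above 0 in Cx30-/- against C57BL6 WT, with a median of 0.60.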

How the data were processed

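Polyadenylated RNA of isolated brain vessels was sequenced as 50-base single reads from an unstranded kit, 1 library per group. According to the methods and labels, the authors trimmed undetermined bases from read ends, discarded short reads and reads of low mean quality, used Bowtie for alignment, kept uniquely matching reads and deposited raw exon counts for 82813 Ensembl transcripts. Transcripts with a common exon each received its reads. The deposited files also give every count as a fraction of a library total, with transcript length and uncovered bases. GENCODE M21 identifiers named 69375 rows (83.8%), and other rows were left out. The labels give mm10, but the files reach position 197054592 on chromosome 1, past the last M21 gene end, 195323493, so coordinates were taken from M21 (GRCm38).

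Each gene took its row with the largest total count. Size factors were medians of ratios, 1.15, 0.926 and 0.953 for C57BL6 WT, C57BL6-BALB/c WT and Cx30-/-. Intervals of ratios are exact conditional binomial (Clopper-Pearson, 95%, scipy 1.17.1), intervals of single levels exact Poisson, and both cover counting error only. Levels per kilobase were ranked over transcripts of at least 200 bases. TMM factors from edgeR 4.0.16 served as an alternative scaling, and the steps were tested on simulated data. The 10 genes and all lists were chosen with earlier results of these data known. Named are the 10 genes, the 2 highest per kilobase in each further choroid list, genes behind counts of 5 or fewer or called, Gjb6 and 5 genes of like profile. One gene that this rule selects is not reported here.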

Additional observations from a re-analysis of the deposited data

How the results depend on the processing

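No log2 ratio of the 10 choroid genes changed sign under any alternative tried (TMM factors, upper quartile, total counts, a pseudocount of 1, the longest row, the sum of rows). Their median between the WT libraries, -1.12, was -1.18 after scaling by the total count of all gene rows and -1.20 after scaling by the total behind the fraction column. At 1.5-fold, 4 of the 10 genes were lower in Cx30-/- than in C57BL6 WT, where 5.85% of all genes were. At 2-fold 0 were, where 1.26% of all genes were. Against C57BL6-BALB/c WT, 4 were higher at 1.5-fold, where 14.1% of all genes were, and 0 at 2-fold, where 3.96% were. Between the WT libraries 0 were lower at 4-fold, where 0.183% of all genes were, and 6 at 2-fold, where 2.02% were. Over the alternatives the medians ran from -0.54 to -0.52 for Cx30-/- against C57BL6 WT and from 0.49 to 0.57 against C57BL6-BALB/c WT. Under upper-quartile scaling 5 of the 10 genes, without Enpp2, were at least 2-fold lower between the WT libraries.

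Counts over all genes moved with the threshold and, in their balance of higher to lower, with the scaling. In Cx30-/- against C57BL6 WT, 210 genes were higher and 186 lower, which became 1018 and 808 with no count minimum, 109 and 121 with 50 normalized counts in both libraries, 726 and 865 at 1.5-fold, and 31 and 13 at 4-fold. Against C57BL6-BALB/c WT, 589 and 705 became 1286 and 1697 with no minimum, 2106 and 2204 at 1.5-fold, and 48 and 37 at 4-fold, and the balance turned to 718 and 586 after scaling by the total count and to 776 and 547 by the total behind the fraction column. Between the WT libraries, 209 higher and 299 lower became 1042 and 934, 1085 and 1189, and 29 and 27, and 119 were higher with the minimum in both libraries. Scaling by the total count gave 177 and 364 there, and by the total behind the fraction column 167 and 378. No paired analysis was possible because each group had 1 library, and for the same reason no library could be left out. Each of the 10 genes had at least 306 counts in every library, but counting error left the side of the 2-fold threshold undecided for Enpp2 and Prlr between the WT libraries, for Folr1 against C57BL6-BALB/c WT and for Aqp1 against C57BL6 WT.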

Other observations

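The genes outside all lists whose ratios of Cx30-/- to each WT library lay nearest to the medians of the 10 choroid genes were C1qtnf5, Nr4a3, Gbp5, Tap1 and Col9a3, chosen by distance over 2 log2 ratios from 7754 genes with at least 500 normalized counts in every library. C1qtnf5, which encodes a secreted collagen-like protein, stood at 1639 normalized counts in C57BL6 WT, 824 in C57BL6-BALB/c WT and 1139 in Cx30-/-, at a distance of 0.026. Nr4a3, an orphan nuclear receptor, stood at 1218, 624 and 858. Gbp5, an interferon-induced GTPase, had 2195, 1111 and 1589. Tap1, a peptide transporter of antigen presentation, had 1548, 859 and 1154, and Col9a3, a chain of collagen IX, had 2171, 1188 and 1633. With 3 libraries, a like profile describes these libraries only.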
